A study of Mus musculus with 29 samples.

Results

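MdC2 is 1 of 6 subtypes into which the authors divided the monocyte-derived cells (code MdC) of mouse brain after stroke. Its cells were taken from the deposited cell annotation as all brain cells with the parent code MdC and the subtype code MdC2: 2805 of 12553 monocyte-derived cells, of 55268 brain cells and of 106977 cells of brain and blood in all. The other subtypes held 2947 (MdC1), 2078 (MdC3), 2039 (MdC4), 1467 (MdC5) and 1217 (MdC6) cells. The subtype codes were made from the expression of these same cells, so the genes that set MdC2 apart from MdC1 and MdC3 to MdC6 are given as a description with no test. Expression was measured by Drop-seq, which captures each cell in a droplet with a barcoded bead, in C57BL/6J mice that had sham surgery or a stroke, made by blocking the middle cerebral artery for a limited time. Young males of 8 to 10 weeks gave 4 sham libraries at day 2, 4 stroke libraries at day 2 and 4 stroke libraries at day 14. From mice aged 17 to 20 months there were 2 sham libraries at day 2 (1 male, 1 female), 3 stroke libraries at day 2 (1 male, 2 female) and 1 stroke library at day 14 (female). Sham brain was sampled at day 2 alone. Every brain library pooled 4 to 5 hemispheres, digested with papain in the presence of a transcription inhibitor, and held sorted CD45-high leukocytes, microglia and endothelial cells, so a library is the replicate and single mice cannot be told apart.

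Monocytes leave the blood and enter injured brain, where they can release cytokines and chemokines, take up debris and turn into macrophages. Ischaemic tissue draws in many such cells in the first days, and they are known to pass from an inflammatory monocyte state to macrophage states that handle lipid and iron. Chemokines of the CXC family such as Cxcl1 and Cxcl2 attract neutrophils, and interleukin 1 is a main driver of inflammation after stroke.

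Depth per brain library (18 in all) was 819438 to 5855047 counts, with 1143 to 5121 cells. A median MdC2 cell held 1197 counts and 717.5 genes at young day 2 and 632 counts and 454.5 genes at young day 14, so shares of cells with a gene are also given after thinning. In 5 young libraries the median mitochondrial share of a cell was 0.235% to 0.559% (sham replicate 1, day 2 replicates 1 and 2, day 14 replicates 1 and 2), against 1.11% to 3.68% in the other 13 brain libraries. Of the bead barcodes, 91 occurred in more than 1 brain library, and 11 MdC2 cells carried such a barcode. The label was set from expression, so its markers are given as a description and no test of it. The 12 genes of a monocyte and macrophage core list were all detected in MdC2, among them the lysozyme gene Lyz2, the growth factor receptor gene Csf1r and the complement receptor subunit Itgam. They summed to 26924 to 40606 CPM (counts per 1000000 counts of the same profile) in the young day 2 libraries, with a mean of 23217.5 CPM from Lyz2 alone. Of 10 microglial and 10 border macrophage markers none was at 0 there (under 0.001 CPM in every library), and of 10 neutrophil markers Camp and Ngp were, with sums of 247 to 534, 609 to 936 and 190.3 to 405 CPM. Of 10 dendritic cell markers, Itgae and Xcr1 were at 0, and the list summed to 6.07 to 37.2 CPM.

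MdC2 made up a large part of the monocyte-derived cells at day 2 after stroke and a small part in sham brain and at day 14. In young stroke brain at day 2, MdC2 cells were 596 of 1939 (30.7%), 427 of 1638 (26.1%), 609 of 2180 (27.9%) and 450 of 1468 (30.7%) monocyte-derived cells. At day 14 they were 22 of 803 (2.74%), 17 of 489 (3.48%), 24 of 749 (3.20%) and 47 of 857 (5.48%). In young sham brain they were 9 of 99 (9.09%), 14 of 94 (14.9%), 1 of 82 (1.22%) and 5 of 43 (11.6%). The day 2 libraries all lay above every library of the other young groups. The mean share fell from 28.8% ± 2.26 (SD, n = 4) at day 2 to 3.73% ± 1.21 (n = 4) at day 14, and edgeR's quasi-likelihood test on cells per subtype gave a log2 change of -2.94 ± 0.40 (SE; adjusted p = 1.25e-05 over 6 subtypes). Against 9.21% ± 5.83 (n = 4) in sham, the share rose at day 2 by 1.66 ± 0.44 on the log2 scale (edgeR, adjusted p = 0.0031). A two-sided exact permutation test gave p = 0.0286 for both contrasts, the smallest value that 4 libraries against 4 allow. Over all brain cells MdC2 took 14.3% ± 3.56 at day 2, 0.799% ± 0.133 at day 14 and 0.180% ± 0.121 in sham (n = 4 each).

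**Figure D1:**
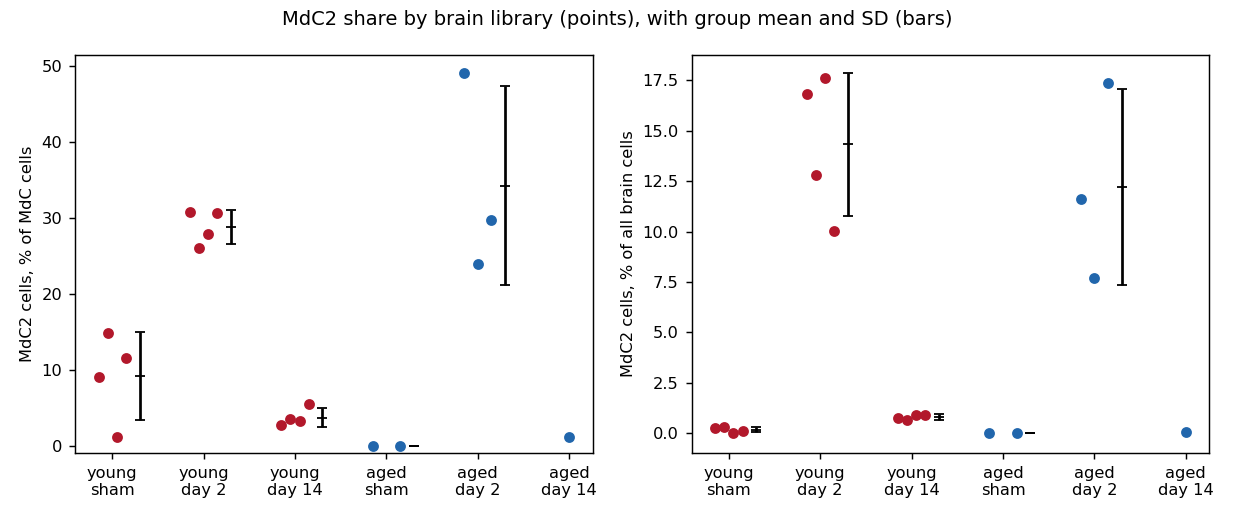
MdC2 cells in each brain library as a percent of monocyte-derived cells (left) and of all brain cells (right), by group; points are libraries, bars the group mean and SD. The 4 young day 2 libraries lie between 26.1% and 30.7% of monocyte-derived cells, above all sham and day 14 libraries.

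Between day 2 and day 14 the other subtypes took different courses in the same fit. MdC1 also fell (log2 change -4.00), MdC4, MdC5 and MdC6 rose (0.99, 1.24 and 3.58), and MdC3 had a log2 change of -0.18 (edgeR, adjusted p = 0.539). As shares of all brain cells, MdC2 still fell (-4.15, adjusted p = 1.39e-06) and MdC6 rose (2.39, 0.0057), but MdC4 (-0.14) and MdC5 (0.09) were not called (adjusted p = 0.825 for both) and MdC3 fell (-1.41, 0.0057; edgeR). At day 14, 34.0% of the monocyte-derived cells in the mean of the 4 libraries were MdC6 cells, and in sham 75.7% ± 10.8 were MdC3 cells. In the aged stroke libraries at day 2 MdC2 was 133 of 271 (49.1%), 195 of 813 (24.0%) and 255 of 856 (29.8%) cells. Their mean of 34.3% ± 13.1 (n = 3) was not shown to differ from the young share (difference 5.44 percentage points, two-sided exact permutation p = 0.743, smallest possible 0.0571), and without the aged male library the difference was -1.96 points. No MdC2 cell was among the 33 and 52 monocyte-derived cells of the aged sham libraries, which allows shares of up to 9.09% and 5.77% by a floor of 3 cells. The aged day 14 library had 1 MdC2 cell of 87 (1.15%, Wilson 95% interval 0.203% to 6.23%). These are shares of the cells that the sort and the dissociation delivered, and fewer cells of a subtype and fewer cells that pass the subtype's own gene pattern cannot be told apart.

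Genes high in MdC2 against the other monocyte-derived cells of the same library included the neutrophil-attracting chemokine genes Cxcl2 and Cxcl1. Beside them were the inflammasome sensor gene Nlrp3, Slpi, Thbs1, F10 and Ehd1. The cytokine gene Il6 was also high by ratio, but at a mean of only 41.3 CPM in MdC2 at young day 2. Over the 7 young stroke libraries with at least 20 MdC2 cells (4 at day 2, 3 at day 14), 3269 genes reached a mean of 50 CPM on 1 side. Of these, 302 (9.24%) were higher in MdC2 in every library and 269 (8.23%) lower in every library, with a median log2 ratio over all genes of -0.004 (CPM plus 10 on both sides). In order of the median ratio, the 15 highest were Cxcl2 (1.98), Il6 (1.72), Slpi (1.61), Ptgs2 (1.55), Clec4e (1.53), Thbs1 (1.52), F10 (1.52), Olr1 (1.48), Dmkn (1.42), Tnfsf9 (1.39), Mefv (1.36), Cxcl1 (1.36), Vcan (1.35), Ehd1 (1.33) and Nlrp3 (1.30). The 10 lowest were Ifit3 (-3.26), Rsad2 (-2.33), Cmpk2 (-2.14), Hebp1 (-2.07), Fabp5 (-2.01), Mx1 (-1.95), Slc48a1 (-1.86), Isg20 (-1.79), Phf11d (-1.74) and Cfb (-1.73). At young day 2 MdC2 was the lowest subtype for Cfb alone. Hebp1, for example, was at 31.7 CPM in MdC2 and at 21.2, 32.8 and 32.2 in MdC3, MdC4 and MdC5. Cmpk2, Hebp1, Slc48a1 and Cfb had no count in MdC2 of the 3 day 14 libraries, where 3 pooled counts equal 32.3 CPM. Their signs at day 14 thus rest on empty profiles. Rsad2, Cmpk2, Mx1 and Isg20 are genes induced by interferon, as is Ifit3, whose reads can be shared with its near copy Ifit3b. Hebp1 and Slc48a1 code for a haem-binding protein and a haem transporter, Fabp5 for a fatty acid-binding protein and Cfb for complement factor B.

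The promoters of the neutrophil-attracting chemokines and Il6 are shown because these genes are among the 15 highest and NF-kB is the textbook activator of all 3. The interferon-induced genes stand for the other end. Each sequence is the 250 bases before the transcription start in RefSeq (GRCm38.p6, the same build as mm10), with the matches to the motif in capitals: the NF-kB consensus, searched by its name on both strands, for Cxcl2 (chromosome 5, 90903649 to 90903898, plus strand), Cxcl1 (chromosome 5, 90890995 to 90891244, plus) and Il6 (chromosome 5, 30012864 to 30013113, plus), and GAAA, any 2 bases and GAAA on both strands, the core of the interferon-stimulated element, for Ifit3 (chromosome 19, 34583279 to 34583528, plus) and Rsad2 (chromosome 12, 26456453 to 26456702, minus).
Cxcl2: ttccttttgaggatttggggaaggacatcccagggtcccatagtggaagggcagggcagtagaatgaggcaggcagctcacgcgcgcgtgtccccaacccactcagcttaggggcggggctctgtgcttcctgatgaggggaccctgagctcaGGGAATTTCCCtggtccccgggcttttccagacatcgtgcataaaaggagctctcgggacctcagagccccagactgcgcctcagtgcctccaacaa
Cxcl1: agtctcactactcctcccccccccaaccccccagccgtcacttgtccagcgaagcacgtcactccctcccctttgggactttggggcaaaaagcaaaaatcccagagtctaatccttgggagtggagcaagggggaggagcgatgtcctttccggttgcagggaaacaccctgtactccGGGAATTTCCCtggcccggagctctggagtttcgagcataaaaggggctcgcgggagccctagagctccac
Il6: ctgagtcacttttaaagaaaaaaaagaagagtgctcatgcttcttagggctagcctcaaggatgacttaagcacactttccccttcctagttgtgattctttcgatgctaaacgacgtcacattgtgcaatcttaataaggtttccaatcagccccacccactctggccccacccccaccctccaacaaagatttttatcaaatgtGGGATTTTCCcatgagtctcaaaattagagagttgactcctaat
Ifit3: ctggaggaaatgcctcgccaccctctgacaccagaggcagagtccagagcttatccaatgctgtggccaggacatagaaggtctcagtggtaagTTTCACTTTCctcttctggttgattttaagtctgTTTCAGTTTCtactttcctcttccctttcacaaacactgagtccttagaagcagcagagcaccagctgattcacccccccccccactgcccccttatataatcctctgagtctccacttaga
Rsad2: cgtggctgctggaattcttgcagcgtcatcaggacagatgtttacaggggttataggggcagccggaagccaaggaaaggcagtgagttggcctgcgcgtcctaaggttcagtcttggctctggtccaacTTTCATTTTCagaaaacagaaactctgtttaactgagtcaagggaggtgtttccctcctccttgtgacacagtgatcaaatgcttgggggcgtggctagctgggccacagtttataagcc
The capitals in Cxcl2 and in Cxcl1 join 2 overlapping matches. The match nearest the 5′ end begins 97 bases before the start in Cxcl2, 71 in Cxcl1, 44 in Il6, 156 in Ifit3 and 120 in Rsad2. Among the 15 highest genes, 12 had an entry and 5 of these (41.7%: Cxcl2, Il6, Dmkn, Cxcl1 and Nlrp3) held the NF-kB consensus, against 2225 of 27025 genes (8.23%) with this window. Among the 10 lowest, 6 had an entry and 2 of these (33.3%: Ifit3 and Rsad2) held the GAAA pair, against 936 of all genes (3.46%), and none of the 12 highest did. The NF-kB consensus was also in 1 of those 6 (16.7%: Isg20). Thbs1, Tnfsf9, Ehd1, Fabp5, Mx1, Slc48a1 and Cfb had no entry, so their promoters were not searched. A match is a description of these letters and no measurement of binding.

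Cxcl2, first in that order, stood at 5584, 8075, 5658 and 8125 CPM in MdC2 of day 2 replicates 1 to 4 (6861 ± 1432, SD, n = 4) and at 2189.9 ± 271 CPM in the other monocyte-derived cells of those libraries. The ranges of MdC2 and the other cells were far apart, and MdC1, the next highest subtype, held 2551 ± 789.6 CPM. Cxcl1 was at 327, 471, 390.2 and 452 CPM in MdC2 at day 2, against 157 ± 56.8 in the others. Cxcl3, a related chemokine, had the highest median ratio of all genes (2.20) but was lower in MdC2 in 1 of 7 libraries, so the rule for named genes did not take it here.

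Among cytokines and enzymes of inflammation, Il1b was at 6608, 7887, 12316 and 10039.5 CPM in MdC2 at day 2 (9212 ± 2507) and at 4153 ± 1571 in the other cells. MdC5 (6967 ± 2376 CPM) and MdC4 (5482 ± 1158) were the nearest subtypes, and MdC2 and MdC5 differed by less than their SDs. Ptgs2, the inducible cyclooxygenase of prostaglandin synthesis, was at 1076, 1304, 721 and 653 CPM against 301 ± 85.8. Il6 was at 56.5, 58.5, 32.3 and 18.0 CPM, a low level, against 17.9 ± 11.8, with MdC4 at 36.6 ± 24.0, within the SD of MdC2. Its day 2 mean of 41.3 CPM was under the 50 CPM level. Il6 reached that level through day 14 replicates 1, 3 and 4, on 5, 4 and 3 counts. Its ratio in the aged day 2 libraries was 0.26, where those of Cxcl2 and Ptgs2 were 1.41 and 1.24. Of the 12 genes of the inflammatory cytokine list, 7 were higher in MdC2 in every library and none lower, with a list median of 1.04. The list also holds Nfkbia, an inhibitor of NF-kB, Nlrp3 and Ptgs2, which are not cytokine genes. Ccl4 (-0.27), Ccl7 (-0.21) and Ccl3 (-0.15) lay at the low end of the list, which all attract monocytes or lymphocytes.

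Other leading genes had several roles. Clec4e codes for the receptor Mincle, which binds glycolipids and a protein released from dead cells, and was at 1373, 1121, 1392 and 1442 CPM in MdC2 at day 2, against 583 ± 171 in the other cells. Nlrp3, the sensor of the inflammasome that matures interleukin 1 beta, was at 295, 259, 274 and 296 against 109 ± 20.4 CPM. Mefv, which codes for pyrin, another inflammasome sensor, was at 242 ± 44.7 against 127 ± 44.1 CPM. Olr1, a receptor for oxidised lipoprotein, was at 54.3 ± 20.1 against 23.0 ± 3.51 CPM. Tnfsf9, the ligand of a T cell costimulatory receptor, was at 392 ± 104 against 202 ± 68.3 CPM. Ehd1, which acts in endosome recycling, varied least between libraries, at 255, 249.7, 253 and 261 CPM against 121 ± 23.0.

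Thbs1, the matrix protein thrombospondin 1, was at 3157, 3283, 1004 and 1272 CPM in MdC2 at day 2 and 933 ± 451 in the others. Replicates 1 and 2, the day 2 libraries with a low mitochondrial share, were the higher pair. They were also the higher pair, without overlap, for Il6, Slpi, Ptgs2 and Vcan and the lower pair for Il1b, Clec4e, Dmkn and Tnfsf9. The part of that share in these levels was not tested. How many of all genes split between these pairs was not counted, so these genes are not shown to differ from others in this. F10, coagulation factor X, was at 771 ± 204 against 375 ± 141 CPM, and Slpi, an inhibitor of leukocyte proteases, at 948 ± 141 against 416 ± 87.8 CPM. Vcan, the matrix proteoglycan versican of classical monocytes, was at 322 ± 95.7 against 142 ± 71.8 CPM and was the exception among the 15 in that another subtype, MdC3, stood higher (458 ± 116). The other 14, among them Dmkn (126 ± 37.2 CPM), had their highest mean of the 6 subtypes in MdC2 at day 2. For several the next subtype lay within the larger SD. This was MdC3 for Slpi (835 ± 160), Mefv (213 ± 61.9), Dmkn (104 ± 27.7) and Thbs1 (1370 ± 713). It was MdC4 for F10 (579 ± 173) and Il6, MdC5 for Tnfsf9 (337 ± 155) and MdC6 for Olr1 (39.9 ± 41.2). Cxcl2, Ptgs2, Clec4e, Cxcl1, Ehd1 and Nlrp3 stood further apart from the next subtype.

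**Figure D2:**
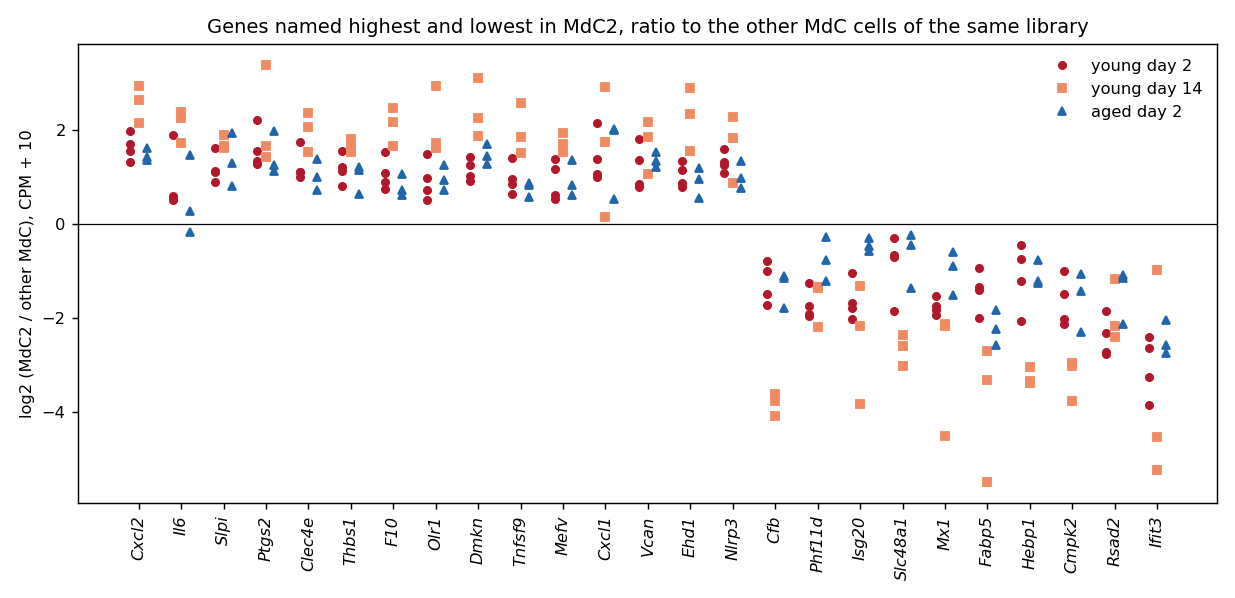
Log2 ratio of MdC2 to the other monocyte-derived cells of the same library (CPM plus 10) for the 15 highest and the 10 lowest genes; each point is a library of young day 2, young day 14 or aged day 2. Young points lie on 1 side of 0 for every gene, by the rule that named them, while aged ratios of Il6, Slc48a1 and Isg20 come near 0 (medians 0.26, -0.46 and -0.48).

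At the level of single cells, a cell was taken to have a gene at an expected count of at least 0.5, and thinned values, in parentheses, are after thinning to 800 counts. Il1b was counted in 87.1% (84.9%) of 2082 MdC2 cells at young day 2 (1435 cells thinned), in 61.0% (58.1%) of 2267 MdC1 cells (1368) and in 64.0% (63.2%) of 1064 MdC3 cells (570). Cxcl2 was counted in 78.4% (74.9%), 56.7% (55.3%) and 36.7% (38.6%) of the same cells. Ptgs2 had 48.8% (36.6%), 21.5% (15.5%) and 11.2% (11.4%), and Clec4e 66.7% (57.9%), 28.5% (22.3%) and 41.8% (38.4%). MdC2 had the highest share of the 3 subtypes for these 4 genes, thinned or not, but not for every leading gene; cells of MdC4 to MdC6 were not counted in this way. Slpi was in 33.9% (27.6%) of MdC2 and 29.9% (29.3%) of MdC3 cells, and Vcan in 26.7% (18.9%) and 27.4% (26.1%), so that MdC3 was higher for Vcan and, after thinning, for Slpi. Il6 was counted in 3.55% (2.02%), 0.882% (0.585%) and 1.60% (1.75%). The median cell held 1197 counts in MdC2, 1010.4 in MdC1 and 824 in MdC3, and the shares pool the cells of 4 libraries. In 2491 endothelial cells (median 552 counts) Il1b and Cxcl2 reached 0.5 in 0 cells, a figure that follows from that threshold, Clec4e was in 0.201% and Ptgs2, which endothelium can express, in 4.42%. Below 0.5, traces of Il1b were deposited for 5.62% and of Cxcl2 for 4.34% of the endothelial cells, so the level of free RNA before the authors' processing cannot be read from these values.

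Gene lists placed MdC2 above all other subtypes in the summed level of inflammatory genes. In monocyte and macrophage genes it lay, with MdC4 and MdC5, between MdC3 and MdC1. At young day 2 the 12 genes of the inflammatory cytokine list summed to 28269 ± 3382 CPM in MdC2 (SD, n = 4 libraries). The sum had a mean of 10627 (MdC3) to 18403 (MdC4) in the other 5. Nfkbia, no cytokine gene, gave 7380 ± 743 CPM of the MdC2 sum. MdC2 was highest in 6 of 11 genes at 50 CPM, namely Il1b, Il1a, Cxcl2, Nfkbia, Nlrp3 and Ptgs2. Tnf, Ccl2, Ccl3, Ccl4 and Ccl7 were highest in another subtype. The glycolysis and hypoxia list of 14 genes summed to 5336 ± 773 in MdC2 and 5124 ± 471 in MdC1, a difference within their SDs, although MdC2 was highest in 9 of 14 single genes. Of 4064 genes at 50 CPM in some subtype, MdC2 was highest in 370 (9.10%). The 12 classical monocyte genes summed to 11807 ± 639 CPM in MdC2, against 18347 ± 2214 in MdC3 and 5545 ± 1353 in MdC1, with MdC4 (16896 ± 2791) and MdC5 (7361 ± 1736) also between. The 12 differentiated macrophage genes summed to 11408 ± 1135 CPM in MdC2, near MdC4 (13646 ± 2186) and MdC5 (10574 ± 2051), against 4900.2 ± 1114 in MdC3 and 28357 ± 4577 in MdC1. For 10 of these 12, and for all 12 differentiated macrophage genes, MdC2 lay between MdC1 and MdC3, as it did for 2233 of all 4064 genes (54.9%). Plac8, a gene of classical monocytes, was at 494 ± 310.04, 1818 ± 818 and 5012 ± 2570.4 CPM in MdC1, MdC2 and MdC3. Apoe, a lipid carrier of macrophages, was at 19820.1 ± 3806, 8378 ± 912 and 3608 ± 921 CPM.

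In the interferon and MHC class II lists MdC2 lay near MdC1 and MdC3, and another subtype was far higher. The interferon response list summed to 1790.5 ± 383 CPM in MdC2, 1319.8 ± 451 in MdC1, 1535 ± 395 in MdC3 and 13289.7 ± 2576 in MdC4, with 9 of 12 genes lower in MdC2 than in the other cells in every library (median -1.07). Rsad2, an antiviral enzyme, was at 109, 61.0, 38.4 and 46.9 CPM in MdC2 at day 2, at 1646 ± 328 in MdC4 and at 48.6 ± 41.0 and 50.6 ± 47.8 in MdC1 and MdC3, levels near that of MdC2 and far below that of MdC4. MHC class II genes, which present antigen, summed to 1134 ± 112 in MdC2, 1208 ± 450.04 in MdC1, 1289 ± 319 in MdC3 and 26211 ± 3917 in MdC5; 5 of 6 at level were lower in every library. Of 11 differentiated macrophage genes at level, 10 were lower in every library (median -1.12), from Hexa (-0.68), a lysosomal enzyme, to C1qa (-1.89), a complement subunit. Fabp5 was at 422, 512, 619 and 385 CPM in MdC2 and at 2353 ± 646 in MdC1, 1965 ± 878 in MdC6 and 145 ± 97.8 in MdC3. Of 12 early response genes such as Fos, which dissociation can also raise, 4 were higher and 1 lower in every library (median 0.14).

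**Figure D3:**
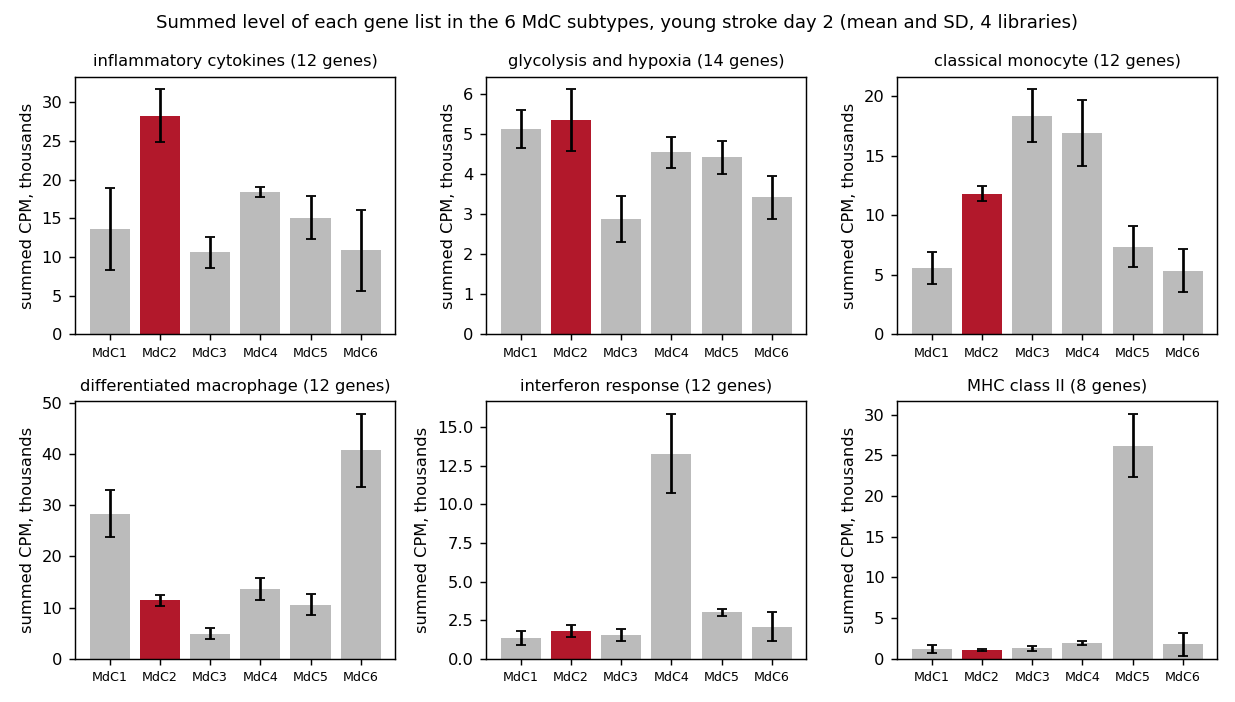
Summed CPM of 6 gene lists in the 6 MdC subtypes of the young day 2 libraries (bars, mean of 4 libraries; error bars, SD). MdC2, in red, is the highest bar for the inflammatory cytokine list, which includes Nfkbia, Nlrp3 and Ptgs2. It lies between MdC1 and MdC3, as MdC4 and MdC5 do, for classical monocyte and differentiated macrophage genes.

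As a whole profile no subtype stood out as nearest to MdC2. The correlation of log2 levels across genes within a library, in which genes are not independent replicates, ran from 0.892 to 0.952 for MdC1, 0.883 to 0.948 for MdC5, 0.877 to 0.936 for MdC4, 0.868 to 0.929 for MdC3 and at most 0.853 for MdC6 over the 4 day 2 libraries. The highest value was that of MdC1 in replicates 2 and 4, of MdC4 in replicate 1 and of MdC5 in replicate 3, and MdC6 had the fewest cells at day 2. Genes over 4-fold apart from MdC2 in the means numbered 13 of 4064 for MdC1, 25 for MdC5, 35 for MdC3, 55 for MdC4 and 118 for MdC6.

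The few MdC2 cells of sham brain held Cxcl2 and Il1b at high levels. These cells too were coded by their expression, so high levels of genes that mark MdC2 can follow from the coding itself. The 29 MdC2 cells of the 4 young sham libraries held 24395 counts together, 12721 of them in replicate 1 and 9610 in replicate 2. These were too few for a test, since no sham library reached 20 cells. Over these pooled counts Cxcl2 was at 10330.1 CPM (counting interval 9094 to 11687) and Il1b at 16192 (14634 to 17870.3). Arg1, an enzyme of alternative activation, and Gpnmb, a lysosomal glycoprotein, had no count in sham MdC2, which allows up to 123 CPM by a floor of 3 counts, and at day 2 stood at 1104 ± 284 and 364 ± 73.1 CPM.

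In blood monocytes Cxcl2, Ptgs2 and Il1b were far lower than in MdC2, while Vcan, Slpi and some other leading genes were present. The blood came from young males of 8 to 10 weeks, pooled from 2 mice per library, with 4 sham and 4 stroke libraries at day 2 and 3 stroke libraries at day 14. In their 6558 cells with the monocyte code (213 to 1029 per library), Cxcl2 had means of 2.31 CPM in sham, 6.60 at stroke day 2 and 0 at day 14, Ptgs2 was at 0 in all 3 groups, and Il1b had 207, 55.4 and 132 CPM. Vcan was at 613 ± 318 CPM in blood at stroke day 2 (SD, n = 4), a higher mean than in MdC2 (322 ± 95.7) by less than the SD in blood. In the same blood Slpi had a mean of 300.2 CPM, F10 239.6, Clec4e 169, Thbs1 122, Mefv 103 and Nlrp3 50.5, below their MdC2 levels. Blood levels of Il6, Olr1, Dmkn, Tnfsf9, Cxcl1 and Ehd1 are not given here, so presence in blood is not claimed for them. Tissue, isolation, sort and table differ together between blood and brain, so no test was made.

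Within MdC2, a single gene passed the test between day 2 and day 14. The fit held the 4 day 2 libraries (427 to 609 MdC2 cells) and day 14 replicates 1, 3 and 4 (22, 24 and 47 cells); replicate 2, with 17 cells, was left out by the minimum of 20. Of 4416 genes tested, 1 passed (0.0226%), Saa3, an acute phase protein of macrophages. Saa3 stood at 263, 711, 574 and 534 CPM at day 2 and at 0, 0, 35.9 and 0 in day 14 replicates 1 to 4, with no overlap, and fell by a log2 change of -5.85 ± 0.86 (SE; edgeR, adjusted p = 0.0499). Only 1 count was seen at day 14, so the ratio of pooled levels was 0.0228 (95% counting interval 0.000577 to 0.127). At an unadjusted p under 0.05 there were 424 genes (9.60%; 2.36% higher and 7.25% lower at day 14), DESeq2 called 21, and 6.91% of genes were higher and 6.75% lower without any overlap of libraries. The call sits at the threshold: it was lost with library size in place of TMM scaling (adjusted p = 0.124), on removal of the cells marked as doublets (0.0501) and without any 1 of 5 libraries (day 2 replicates 3 and 4, day 14 replicates 1, 3 and 4; 0.0977 to 0.443). The day 14 profiles held 18558 to 45662 counts each, so a gene that was not called is not shown to be unchanged.

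Leading genes of MdC2 were not called between the days. Il1b was at 9365, 5662, 14092 and 21115 CPM in day 14 replicates 1 to 4, against 6608, 7887, 12316 and 10039.5 at day 2, and the groups overlapped (log2 change 0.28 ± 0.38, adjusted p = 0.872). Clec4e was at 2043, 1059, 952 and 1605 CPM at day 14 (log2 change -0.12 ± 0.36, adjusted p = 0.962), and Ptgs2 at 851, 703, 426 and 1602 (-0.35 ± 0.42, adjusted p = 0.844). Of the 12 genes of the inflammatory cytokine list, none passed. Log2 changes in the list ran from -2.83 for Ccl2, which attracts monocytes, to 1.40 for Il6. Ccl2 was at 1238, 1324, 1764 and 2759 CPM at day 2 and 344, 532, 106 and 523 at day 14, without overlap, with an unadjusted p of 0.000127 and an adjusted p of 0.095. Cxcl1, which is not in the list, was at 327, 471, 390.2 and 452 and then 64.1, 0, 144 and 251 CPM, also without overlap (log2 change -1.90 ± 0.44, edgeR, adjusted p = 0.278).

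Log2 changes of the glycolysis and hypoxia list were negative for 13 of 14 genes, with a median of -0.79 and no gene called; of all genes tested 36.7% were positive, with a median of -0.23. Its lowest member was Hilpda, a lipid droplet protein induced by hypoxia, at 353, 408, 794 and 515 CPM at day 2 and 256, 101 and 0 in day 14 replicates 1, 3 and 4 (adjusted p = 0.381). With library size alone the median over all genes moved from -0.23 to 0.07, and 9 of the 14 genes were negative. Median changes were -0.94 for 11 tested lipid and lysosome genes, -0.03 for 12 classical monocyte genes and 0.70 for 6 MHC class II genes, with none called. Leaving out single libraries moved these medians. The lipid and lysosome median was -1.51 without day 14 replicate 1 and -0.55 without replicate 4, the MHC class II median 0.29 without replicate 3, and the glycolysis and hypoxia median -0.45 without day 2 replicate 4, -0.52 without day 2 replicate 3 and -0.51 without day 14 replicate 4. The classical monocyte median ran from -0.30 to 0.25 on leaving out each library (day 2 replicates 3 and 2). Ly6c2, the surface marker of classical monocytes, was at 965, 355, 960.02 and 520.1 CPM at day 2 and 2057, 1591, 3298 and 1728 at day 14, all day 14 values lying higher, with an adjusted p of 0.381.

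Macrophage genes moved apart between MdC2 and the other monocyte-derived cells from day 2 to day 14, and the difference between the change in MdC2 and the change in the other cells was tested directly. Of 4416 genes, 37 passed (0.838%), 12 (0.272%) with a higher and 25 (0.566%) with a lower change in MdC2 than in the other cells. With library size in place of TMM, under which the median over all genes was 0.14 in place of -0.16, there were 40, 28 higher and 12 lower, and 24 of the 37 were shared. At an unadjusted p under 0.05 there were 432 genes (9.78%; 2.79% with a higher change in MdC2), and 39.6% of all genes had a positive difference. Leaving out each library in turn gave 15 (without day 2 replicate 4) to 115 (without day 14 replicate 1). Of 10 differentiated macrophage genes tested, 8 passed and all 8 were lower (median of the 10 -1.37), namely Gpnmb, Apoe, Trem2, C1qa, C1qb, C1qc, Cd63 and Hexa; with library size alone 5 of 10 passed and with DESeq2 5 of 12, with 6 of 10 when day 14 replicate 2 was added by a minimum of 10 cells. Without day 2 replicate 3 or 4 the number was 3, and without day 2 replicate 1 or day 14 replicate 3 it was 4. The genes tested were all negative in each of these but DESeq2 (11 of 12). The subtype codes were set from expression and the other profile pools subtypes whose shares shifted, so a change within cells and a change in how cells were coded cannot be told apart.

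Gpnmb was at 349, 472, 325 and 312 CPM in MdC2 at day 2 and 216, 34.9 and 0 in day 14 replicates 1, 3 and 4, and in the other cells at 508, 823, 449.9 and 521 and then 2331, 2389 and 1681 CPM. In these 3 libraries the other cells lay above every day 2 library and MdC2 lay below, and the log2 changes differed by -3.91 ± 0.35 (edgeR, adjusted p = 3.31e-13). Spp1, the secreted phosphoprotein osteopontin, was at 3539 ± 1389.8 and 1086 ± 1366 CPM in MdC2 (n = 4 and 3) and at 8776 ± 4653 and 16297 ± 7167 in the others, a difference of -2.74 ± 0.33 (adjusted p = 2.39e-08). Day 14 replicate 2, outside the fit, held 6779 CPM of Spp1 and 394 of Gpnmb, the highest of the day 14 libraries, and its Gpnmb overlapped the day 2 values. Fabp5 differed by -2.64 ± 0.42 (edgeR, adjusted p = 2.52e-05) and Apoe by -1.87 ± 0.25 (adjusted p = 4.5e-07), Apoe with 12481 ± 8928 CPM in MdC2 and 49766 ± 9034 in the others at day 14. In MdC2 of the 3 fitted day 14 libraries, Fabp5 had 10 counts in all and Gpnmb 11. Trem2, a lipid receptor of macrophages, differed by -2.20 ± 0.35 (adjusted p = 2.48e-05), and the lysosomal protease genes Ctsd and Ctsb by -1.33 ± 0.22 and -1.29 ± 0.21 (adjusted p = 5.31e-05 and 3.53e-05).

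Timp2, a protease inhibitor, and Snrpc, a splicing protein, were called on still fewer counts. Timp2 had 1 count in the MdC2 of the 3 fitted day 14 libraries, for a ratio of pooled levels of 0.260 (95% counting interval 0.00654 to 1.48) to day 2, and its difference was -3.73 ± 0.92 (adjusted p = 0.0244). Snrpc had no count in the 3 fitted day 14 libraries, at least 2.98-fold lower than at day 2 by a floor of 3 counts over the group, while replicate 2 held 132 CPM, above the 83.1, 110.3, 100.3 and 106 CPM of the day 2 libraries. With replicate 2 in the fit Snrpc was not called (adjusted p = 0.217).

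Genes with a higher change in MdC2 included Arg1, Hmox1, the haem-degrading enzyme, Gclm, of glutathione synthesis, Txnrd1, thioredoxin reductase, the chemokine gene Cxcl3 and Rbbp8, a DNA repair gene. Arg1 was at 688, 1154, 1286 and 1289.96 CPM in MdC2 at day 2 and 783, 1732 and 264 at day 14, overlapping, but at 1639 ± 586 and 299 ± 248 in the other cells, with a difference of 1.99 ± 0.28 (edgeR, adjusted p = 8.53e-07). Hmox1 followed the same course (409 ± 145 and 80.7 ± 20.9 CPM in the others) with a difference of 1.76 ± 0.41 (adjusted p = 0.0135). In MdC2 its day 14 values of 520.4, 175 and 0 CPM were widely spread. Clec4d, a lectin receptor gene named after its values were seen, differed by 1.11 ± 0.21 (adjusted p = 0.000851), with 1094 ± 193 CPM in MdC2 and 209 ± 30.1 in the others at day 14. Gclm and Rbbp8 differed by 2.49 ± 0.64 and 2.13 ± 0.53 (edgeR, adjusted p = 0.0322 and 0.0264). They had few counts in MdC2 of the 3 fitted day 14 libraries, 11 for Gclm and 15 for Rbbp8. Of 9 antioxidant and iron genes tested, 3 passed, all higher (Hmox1, Gclm and Txnrd1), beside 0.272% of all genes called higher. Without day 2 replicate 3 or 4, and with DESeq2, 1 passed.

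Day 14 replicate 1 decided several of these calls. Cxcl3 differed by 2.91 ± 0.52 (adjusted p = 0.000197), with day 14 values of 542, 65.8 and 0 CPM in replicates 1, 3 and 4, and without replicate 1 the difference was -0.01 (adjusted p = 1.00). Without that library 115 genes passed (5 higher, 110 lower), and Gclm, Rbbp8, Hmox1 and Timp2 no longer did (adjusted p = 0.425, 0.410, 0.965 and 0.218), while Arg1, Gpnmb, Spp1 and Fabp5 still did. The antioxidant list then had a median of -0.87 in place of 0.33, and the macrophage list of -2.59 with 9 of 12 called.

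**Figure D4:**
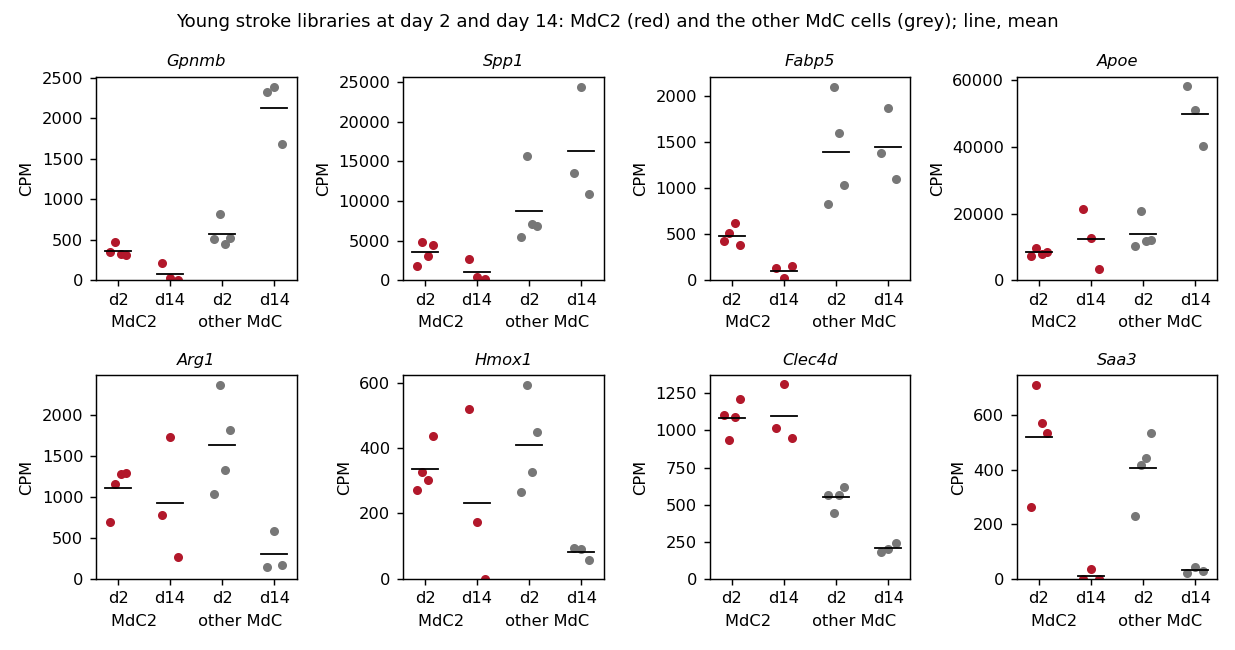
Levels in CPM of 8 genes at day 2 (4 libraries) and day 14 (3 libraries) after stroke in young mice, in MdC2 (red) and in the other monocyte-derived cells (grey); points are libraries, lines means. Gpnmb and Apoe are higher at day 14 in every library of the other cells, at 2331, 2389 and 1681 CPM for Gpnmb, while Arg1 and Clec4d are lower there and overlap between the days in MdC2.

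In aged mice at day 2, no gene of MdC2 passed against young mice (0 of 4122, 0%), with 271 genes at an unadjusted p under 0.05 (6.57%; 3.88% higher and 2.69% lower in aged mice) and 17 called by DESeq2. The 3 aged libraries held 133, 195 and 255 MdC2 cells, and without young day 2 replicate 2 edgeR called 9 genes, all higher in aged mice. With so few libraries, a gene that did not pass is not shown to be equal between the ages. All 12 genes of the inflammatory cytokine list had positive log2 differences with a median of 0.75 (10 of 12 and 0.66 with library size alone). Over all genes the median was -0.01, and 2028 (49.2%) were positive. In 4 of the 12 every aged library lay above every young library, which 121 of all genes (2.94%) did, while 273 (6.62%) lay below in every aged library. Il1b was at 21921, 15715 and 11246 CPM in the aged libraries (male, female 1 and female 2) and 6608, 7887, 12316 and 10039.5 in the young, with an overlap and a log2 difference of 0.89 ± 0.31 (edgeR, adjusted p = 0.622). Nlrp3 was at 513, 439.6 and 477 against 295, 259, 274 and 296 CPM, without overlap (0.83 ± 0.18, edgeR, adjusted p = 0.25). Cxcl1, which is not in the list, was at 742, 607 and 816 against 327, 471, 390.2 and 452, also without overlap (0.89 ± 0.23, adjusted p = 0.408).

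The interferon response list gave 10 positive log2 differences of 10 genes tested, with a median of 0.90, beside 49.2% positive over all genes, and in 4 every aged library lay above every young one, beside 2.94% of all genes. Ifi209 was at 495, 795 and 562 CPM in aged and 345, 179, 272 and 322 in young MdC2 (log2 difference 1.20 ± 0.25, adjusted p = 0.25), and Irf7, a transcription factor of the interferon response, at 216, 392 and 320.01 and 146, 75.9, 159.9 and 163 (1.22 ± 0.29, adjusted p = 0.366). With sex as a covariate, which compares the aged male library with the young males, 7 of the 10 were positive with a median of 0.29, and 11 of the 12 inflammatory genes with a median of 0.33. Age and sex differ together here. The aged brain libraries also came with 27514 genes each and the young ones with 19704, so age, sex and this difference between the deposited counts cannot be told apart.

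Other genes with large differences were Saa3, at 2645, 1269 and 1865 CPM in aged and 521 ± 187 in young MdC2 (log2 difference 1.96 ± 0.38, adjusted p = 0.23), Arg1, at 3723, 5303 and 2581 against 1104 ± 284 (1.86 ± 0.32, adjusted p = 0.189), and Gpnmb, at 52.2, 148 and 128 against 364 ± 73.1 (-1.68 ± 0.33, adjusted p = 0.23). Their libraries did not overlap between the ages, but none passed. The largest log2 difference of all genes tested was that of S100a9, a neutrophil gene. In young day 2 libraries S100a9 was at 11.6 ± 23.1 CPM in MdC2 and near 0 in the other subtypes. Its difference therefore rests in part on young values near 0, while the related S100a8 was at 135 ± 83.2 CPM in young MdC2. Of the 4 neutrophil markers tested, S100a9 among them, none had every aged library above every young one. The 10 neutrophil markers summed to 10199 CPM in MdC2 of the aged male library and to 190.3 to 405 in young. The aged female libraries lay far below the male one, with a lowest sum of 367 and a mean of 3665 over all aged day 2 libraries. The part of neutrophil RNA in the other age differences was not tested. Without the male library the inflammatory list kept a median of 0.77 (11 of 12 positive) and the interferon list 1.30 (12 of 12).

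**Figure D5:**
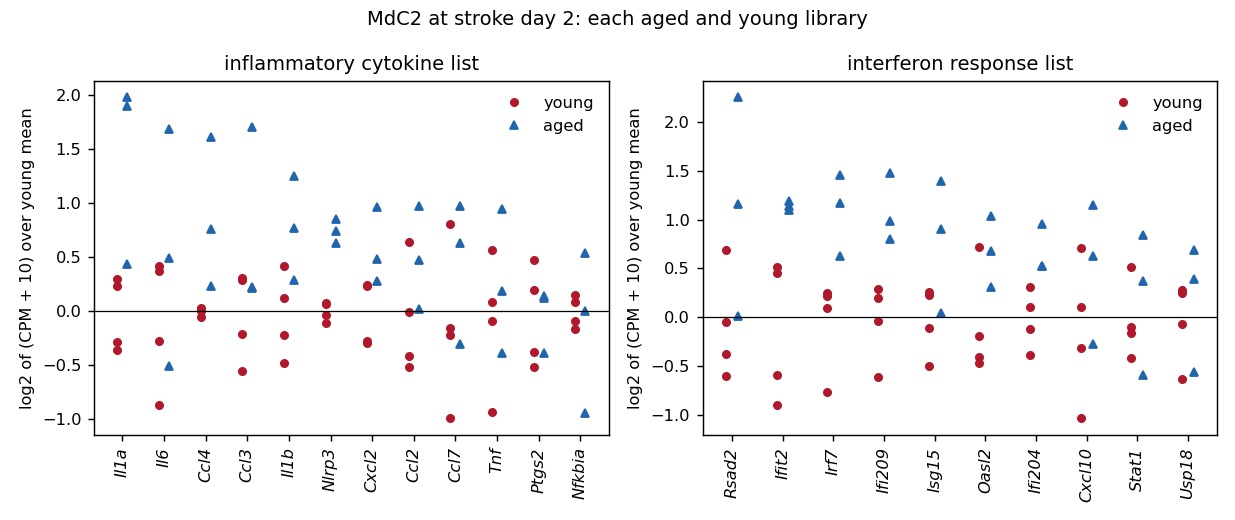
MdC2 at stroke day 2: log2 of each library's level (CPM plus 10) over the young mean for the tested genes of the inflammatory cytokine list (left) and the interferon response list (right), ordered by the fitted difference. Aged libraries (blue triangles) lie mostly above young ones (red points), with overlap in 8 of 12 and 6 of 10 genes, and no gene passed the test.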

How the data were processed

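Drop-seq libraries of sorted brain cells were analysed, with blood libraries used only for levels in monocytes. The authors deposited expected counts, fractional values per gene and cell; mm10 and Seurat are named in the submitters' processing notes, and the aligner, the annotation, the cell filters and the step that made counts fractional are not given in the sources used here. The deposited cell annotation gave library, cell type and subtype, a count of molecules and the percent of mitochondrial counts of each cell, a percent made by the authors. Nothing in the labels says that same-numbered libraries share animals, and p-values measure the spread between pooled libraries.

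Expected counts of MdC2 cells, and of all other MdC cells, were summed per library and rounded to whole numbers; profiles of fewer than 20 MdC2 cells were left out. MdC2 totals ran from 317839 to 989320.0 counts at young day 2, 18558 to 45662 in the 3 fitted day 14 libraries and 176295 to 301031 at aged day 2. CPM divides by these totals. Tests used edgeR 4.0.16 (quasi-likelihood, TMM scaling, filterByExpr, Benjamini-Hochberg adjustment over all genes tested; R 4.3.3, limma 3.58.1), with DESeq2 1.42.0 as an alternative. The test of changes between MdC2 and the other cells had each library as a block and its gene filter on the MdC2 profiles, set after a check on simulated data and after results had been seen. Shares of MdC cells were tested with edgeR on cells per subtype and with two-sided exact permutation tests (scipy 1.17.1). Each SE of an edgeR log2 change was computed as its absolute value divided by the square root of the F statistic. Scrublet (scanpy 1.11.5) marked 176 of 55268 brain cells (0.318%), too few for it to have worked, so doublets were not removed; intervals and floors cover counting error only. Shares of cells with a gene used an expected count of at least 0.5, a threshold set after near-zero entries were seen in the deposited values.

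Named genes were the 15 highest and 10 lowest by median log2 ratio of MdC2 to the other cells with 1 sign in all 7 libraries and at least 50 CPM on the higher side, called genes of the time and age tests (at most 10 a direction, at least 20 CPM, no overlap of libraries), the 5 highest and 5 lowest called differences between changes, and examples from the gene lists. Predicted, mitochondrial, ribosomal protein, haemoglobin and antigen receptor genes, and genes more than 10 times higher in another brain cell type (500 cells or more) than in MdC2, were not named. The members, lists and tests were chosen with earlier results of these data known. Alternatives were DESeq2, library size scaling, no filter, rounding up, removal of marked cells, a replicate block, sex as a covariate, other cell minimums and leaving out each library. The expression of MdC2 in stroke against sham was not tested, since no sham library held 20 MdC2 cells.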

Additional observations from a re-analysis of the deposited data

Results flagged for a closer look

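Hebp1, a haem-binding protein gene, stood at 49.4 CPM in MdC2 of young day 2 replicate 3, apart from the 24.3 to 27.2 CPM of the other 3 libraries. It was the only such gap among 39 groups of 4 libraries checked, where about 1 group in 20 is flagged by chance.

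The change from day 2 to day 14 differed between MdC2 and the other monocyte-derived cells by the test of that difference (edgeR) for 10 named genes. On the log2 scale it was higher in MdC2 for Cxcl3 (2.91), Gclm (2.49), Rbbp8 (2.13), Arg1 (1.99) and Hmox1 (1.76). It was lower for Snrpc (-9.44), Gpnmb (-3.91), Timp2 (-3.73), Spp1 (-2.74) and Fabp5 (-2.64). Over the 3 day 14 libraries fitted, Timp2 had 1 count. Snrpc had 0 there, so its value is no measure of size, and its pooled level in these 3 was at least 2.98-fold lower than at day 2 by a floor of 3 counts over the group. Day 14 replicate 2, outside the fit, held 132 CPM of Snrpc, above every day 2 library, and with it Snrpc was not called (adjusted p = 0.217). Without day 14 replicate 1, Cxcl3, Gclm, Rbbp8, Hmox1 and Timp2 were no longer called.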

How the results depend on the processing

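The shares of MdC2 at day 14 against day 2 and at day 2 against sham kept their direction and side of the threshold in all 19 alternatives each. The aged minus young share turned to -2.10 points over all brain cells and ran from -1.96 (without the aged male library) to 10.6 on leaving out each library. Between day 2 and day 14 in MdC2, 1 gene was called; DESeq2 called 21, no filter 25, a minimum of 10 cells 7 (7 also with the mitochondrial class as a term), and 0 were called with library size, rounding up, removal of marked cells or of the cells with most counts, with 0 to 1 on leaving out each library. The replicate block gave 26 (5 higher, 21 lower). Same-numbered libraries correlated at 0.151, 0.334 and 0.0419 for numbers 1, 3 and 4, and only replicate 3 correlated best with its own number, so the libraries were treated as sharing a number alone. With the block, the share changes were -3.00 (adjusted p = 6.77e-06, edgeR) and 1.73 (0.0038). For age no numbers are shared. Against young mice 0 genes were called, with 17 by DESeq2, 26 with no filter, 2 with sex as a covariate and 0 to 9 on leaving out each library (9 without young day 2 replicate 2). For the difference between changes, 37 genes became 106 with no filter, 66 with the filter on both profiles, 24 without the cells with most counts, 28 with DESeq2 (8 higher, 20 lower; 22 of the 37 shared), 28 with a minimum of 10 cells (26 of the 37 shared) and 15 to 115 on leaving out each library; without day 2 replicates 1 to 4 they were 19, 57, 16 and 15, and without day 14 replicates 1 and 3 they were 115 and 19. Cxcl3 ran from -0.00990 (without day 14 replicate 1) to 3.50 on leaving out each library. The cause was not tested. Of the other values for named genes in that test, 116 kept their call and 24 lost it. Alternatives with at least 50 cells could not be run at day 14, nor any for expression against sham. Filters on both profiles, a minimum of 10 cells, the mitochondrial class and the cells with most counts were added after seeing the data.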
